A study of Mus musculus with 9 samples.

Results

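The 10 genes described here belong to the inflammasome and to the inflammatory cytokines it releases or works beside. They were chosen by name as Nlrp3, Aim2, Pycard, Casp1 and Gsdmd, which build the inflammasome and its pore, and as Il1a, Il1b, Il18, Il1rn and Tnf, which encode cytokines and a cytokine antagonist. They are 10 of 36528 genes in each table, and all 10 passed the filter on low counts that 12250 genes passed. The libraries were made from RNA of sorted Cd11b+ myeloid cells of mouse brain, where microglia are the main Cd11b+ cell. The Tau-P301L group held 5 libraries (2 female, 3 male) from mice with a transgene for tau carrying the P301L mutation, and the wild-type group held 4 libraries (2 female, 2 male) from littermates without it. All mice were 11 to 12 months old, and the promoter of the transgene is not given in the sources used here. Libraries are numbered in sample order: wild-type libraries 1 and 2 and Tau-P301L libraries 1 and 2 are female, the others male. Whether every library is 1 mouse is not given in the sources used here, and p-values measure only the spread between the 9 libraries.

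Inflammasomes are protein platforms that assemble in the cytosol of myeloid cells. A sensor such as NLRP3 (cell stress and membrane damage) or AIM2 (double-stranded DNA) recruits the adaptor ASC, encoded by Pycard, which gathers and activates caspase-1. Caspase-1 cuts the precursors of IL-1beta and IL-18 into active cytokines and cuts gasdermin D, whose fragment forms the pore through which they leave the cell. IL-1alpha acts on the same receptor as IL-1beta but is active without that cut, and the product of Il1rn occupies the receptor without signalling. TNF is made by microglia under many of the same stimuli and is released by a different protease. Much of this pathway is set at the protein level, which mRNA counts do not show.

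Il1a and Il1b are neighbours on mouse chromosome 2, where 54.6 kb separate them, and the upstream sequence of both and of Tnf is shown because these 3 cytokine genes each hold the letters TATAAA within 40 to 20 bases before their start. Il1rn lies on the same chromosome and is shown, at the first of its 3 RefSeq starts, as the antagonist of the pair. Each line gives the 150 bases before the RefSeq transcript start (GRCm38.p6), 5′ to 3′ on the gene's strand, with matches to TATAAA and to the AP-1 motif TGANTCA in capitals.
Il1a, chr2:129309973-129310122, minus strand: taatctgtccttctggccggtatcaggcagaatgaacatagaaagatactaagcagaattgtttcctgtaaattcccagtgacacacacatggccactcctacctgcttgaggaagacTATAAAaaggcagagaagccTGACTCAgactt
Il1b, chr2:129371140-129371289, minus strand: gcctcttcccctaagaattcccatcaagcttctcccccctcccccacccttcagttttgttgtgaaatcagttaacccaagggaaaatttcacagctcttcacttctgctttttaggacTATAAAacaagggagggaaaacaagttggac
Tnf, chr17:35202008-35202157, minus strand: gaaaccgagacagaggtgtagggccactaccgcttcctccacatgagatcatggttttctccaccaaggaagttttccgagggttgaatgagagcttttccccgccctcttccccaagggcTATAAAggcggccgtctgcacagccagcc
Il1rn, chr2:24336710-24336859, plus strand: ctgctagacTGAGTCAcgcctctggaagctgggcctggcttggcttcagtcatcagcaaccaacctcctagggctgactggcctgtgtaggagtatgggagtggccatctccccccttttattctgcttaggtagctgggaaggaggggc

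The TATAAA match began 32 bases before the start in Il1a, 31 bases before it in Il1b and 29 bases before it in Tnf. A match on the gene's strand that begins 40 to 20 bases before the start was found in 1.99% of 32851 promoter windows, and among 12 windows of 9 member genes only in these 3. Gsdmd had no entry among the promoters. Anywhere in the 300-base window and on either strand, TATAAA was present in 13.6% of all promoters and in 5 of the 9 member genes. AP-1 matches were present in 7.81% of promoters and in 2 member genes: at -12 in Il1a and at -141 in Il1rn. The NF-kB consensus was found in 4.51% of promoters and in 1 member gene, Nlrp3 (at -186, minus strand). The core letters of the interferon-stimulated response element (ISRE) were found in 3.44% of promoters and in none of the member windows. These are matches of letters, on both strands, and do not show that a factor binds.

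The libraries held 1.49 to 3.79 M reads counted in genes, so that 3 reads in a library equal 0.831 to 2.09 CPM (counts per 1000000 reads, after TMM, a trimmed-mean adjustment between libraries). By the mean correlation of log2 CPM to the other libraries, Tau-P301L library 5 (0.835) and library 3 (0.844) were lowest, and the others lay between 0.864 and 0.896. The 8 microglial markers (Cx3cr1, P2ry12, Tmem119 and others) summed to 10300 to 14200 CPM in wild-type and 8250 to 14800 CPM in Tau-P301L libraries. Markers of other cells were lower. The 6 oligodendrocyte genes summed to 510 to 700 CPM in wild-type and 327 to 1440 CPM in Tau-P301L libraries, the 6 astrocyte genes to 307 to 375 and 302 to 660 CPM, and the 8 neuronal genes to 94.4 to 173 and 64.2 to 167 CPM. The sums were 40.6 to 96.1 and 84.6 to 125 CPM for 10 monocyte genes, and 32.9 to 115 and 51.8 to 97.8 CPM for 8 border macrophage genes, wild-type before Tau-P301L. Markers of T and NK cells reached at most 2.15 CPM, with Cd3e, Cd3g, Cd2, Nkg7 and Gzma at 0 in all libraries, and those of B cells at most 2.76 CPM. Neutrophil genes are given below beside the cytokines. In bulk RNA, fewer cells of a type and less RNA per cell cannot be told apart.

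The inflammasome genes and the cytokines Il1a and Il18 were expressed in every library of both genotypes, and Il1b, Il1rn and Tnf were rare in both. None of the 10 genes passed edgeR's test for a difference between Tau-P301L and wild-type (adjusted p under 0.05). Of all 12250 genes 1 passed, or 0.00816%. No member had an unadjusted p under 0.05 in edgeR, against 6.35% of all genes (3.57% higher and 2.78% lower). DESeq2, which called 0.141% of all genes, and limma-voom, which called 0.00816%, called no member. Each gave 1 member, Il1rn, an unadjusted p under 0.05. Of all genes with a p-value, 1115 of 24666 had one that low in DESeq2 and 732 of 12250 in limma-voom. For none of the 10 did the libraries of the groups separate fully, against 2.48% of all genes (1.31% higher and 1.18% lower). Estimates were higher in Tau-P301L for 6 members and lower for 4, with a median log2 fold change of 0.22, where the median of all tested genes was 0.00 and 49.9% of them had higher estimates. Intervals were wide for the rare transcripts, so a missing call does not show that levels were alike.

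**Figure D1:**
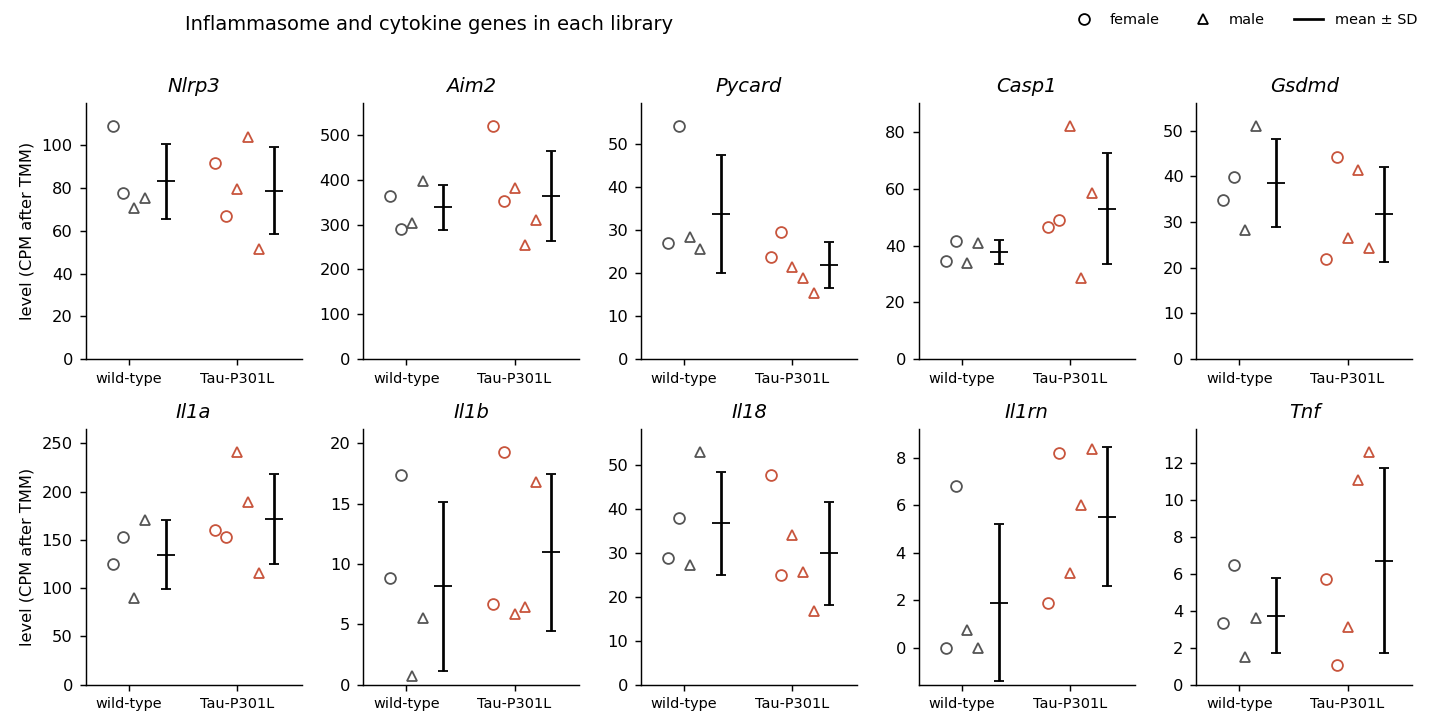
Level of each gene in each library (vertical axis, CPM after trimmed-mean scaling, linear from 0 or from the lower end of the error bar), wild-type in grey and Tau-P301L in red, with circles for females and triangles for males and bars for the mean ± SD of 4 and 5 libraries. The groups overlap in all 10 panels. Il1b, Il1rn and Tnf span the widest relative ranges.

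Levels of different genes were compared on the authors' length-scaled values (size-factor-adjusted RPKM). In wild-type libraries Aim2 stood highest at 12.0 ± 1.66 RPKM (SD, n = 4), followed by Il1a at 7.18 ± 1.84, Casp1 at 6.0 ± 0.637, Il18 at 5.27 ± 1.65, Nlrp3 at 4.93 ± 1.01, Gsdmd at 4.62 ± 1.1 and Pycard at 3.82 ± 1.57 RPKM. Il1b at 0.919 ± 0.796, Tnf at 0.546 ± 0.30 and Il1rn at 0.163 ± 0.284 RPKM closed the order. The gap to the next gene was larger than the SD of both neighbours at 3 places: after Aim2, after Pycard and after Tnf. From Il1a to Pycard, neighbours in the wild-type order did not differ beyond their spread, but Il1a and Pycard, the ends of this stretch, did. The same order held in Tau-P301L libraries except that Nlrp3 (4.72 ± 1.22 RPKM, SD, n = 5) and Il18 (4.33 ± 1.67) changed places. In Tau-P301L libraries these ends stood at 9.29 ± 2.62 (Il1a) and 2.49 ± 0.577 RPKM (Pycard), and gaps between neighbours were not examined there. On average in both genotypes, Aim2 lay above the genes from Il1a to Pycard, and Il1b, Tnf and Il1rn lay below them.

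**Figure D2:**
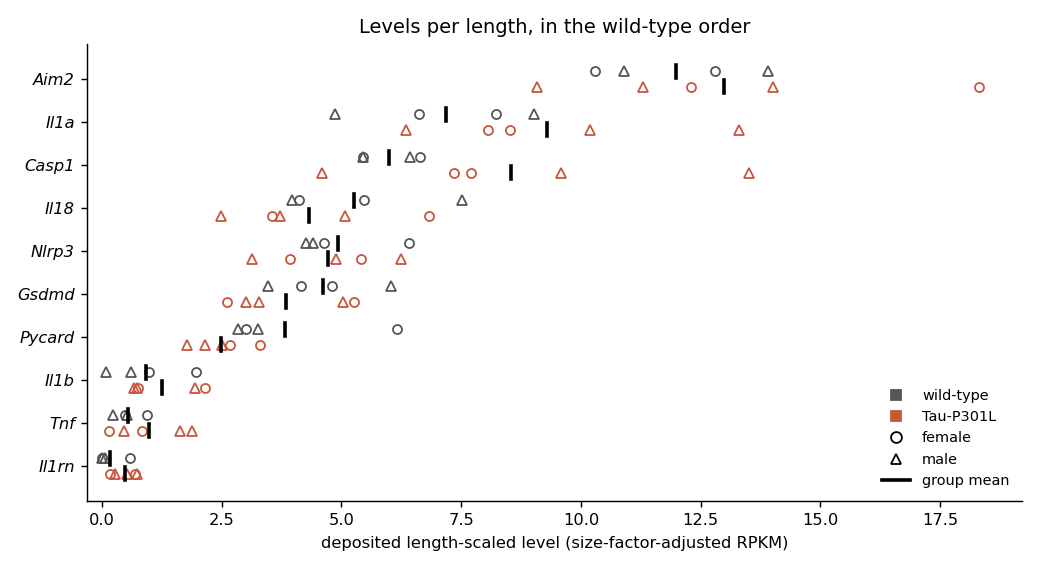
Deposited length-scaled level (horizontal axis, RPKM) of each gene in each library, in the wild-type order, with grey for wild-type, red for Tau-P301L, circles for females, triangles for males and black bars for group means. Aim2 leads at 12.0 RPKM in wild-type, 6 genes lie between 3.82 and 7.18 RPKM, and Il1b, Tnf and Il1rn lie under 1 RPKM on average in wild-type.

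The sensor Nlrp3 (GENCODE M21, GRCm38, chr11:59541568-59566956, plus strand) had 109, 77.7, 70.8 and 75.3 CPM in wild-type libraries 1 to 4 and 91.8, 67.1, 79.8, 104 and 51.7 CPM in Tau-P301L libraries 1 to 5. The ranges lay on top of each other, with the highest value in a wild-type and the lowest in a Tau-P301L library. Tau-P301L over wild-type gave a log2 fold change of -0.05 (SE 0.28, edgeR adjusted p = 0.981), with a 95% interval of 0.649-fold to 1.44-fold, and its sign changed with the library left out (-0.185 to 0.078).

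Aim2, the DNA sensor (chr1:173350879-173466040, plus strand), had 365, 290, 303 and 397 CPM in wild-type and 520, 353, 383, 254 and 311 CPM in Tau-P301L libraries. Tau-P301L library 1, a female, was highest and Tau-P301L library 4, a male, lowest, so both extremes came from the same group. Its genotype difference was 0.11 on the log2 scale (SE 0.23, edgeR adjusted p = 0.945), an interval of 0.772-fold to 1.5-fold, and it was -0.053 without Tau-P301L library 1. Nlrp3 and Aim2 had the narrowest intervals of the 10 beside Il1a. Aim2 belongs to a family of interferon-inducible genes with similar sequences on the same stretch of chromosome 1, and reads that fit more than 1 of them were not counted.

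Pycard encodes the adaptor that links sensors to caspase-1 (chr7:127989708-127993867, minus strand). It had 27.0, 54.2, 28.3 and 25.5 CPM in wild-type and 23.8, 29.6, 21.5, 18.8 and 15.4 CPM in Tau-P301L libraries. In Tau-P301L 4 of 5 libraries lay below every wild-type library, and library 2, at 29.6 CPM, lay above 3 of the 4. For Pycard the difference was -0.56 log2 units (SE 0.34, edgeR adjusted p = 0.793), the lowest of the 10, with an interval of 0.412-fold to 1.11-fold. Wild-type library 2 was far above its group, and without it the value was -0.34. Without wild-type library 1 the value was -0.72. The antisense gene Gm45205 overlaps 12.8% of the exonic bases of Pycard, and the strand of the counted reads is not given in the sources used here.

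Casp1, the protease (chr9:5298517-5307265, plus strand), had an estimate of the other sign. It had 34.6, 41.6, 33.7 and 41.0 CPM in wild-type, a tight group, and 46.4, 48.9, 82.1, 28.6 and 58.7 CPM in Tau-P301L libraries. In Tau-P301L 4 of 5 libraries lay above every wild-type library and library 4 lay below every one. The estimate was 0.47 log2 units (SE 0.32, edgeR adjusted p = 0.813; interval 0.866-fold to 2.21-fold). Leaving out Tau-P301L libraries 3 and 5, its highest, gave 0.05, and leaving out library 4 gave 0.63.

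Gsdmd, the pore former (chr15:75862327-75867408, plus strand), had 34.9, 39.9, 28.3 and 51.0 CPM in wild-type and 21.9, 44.3, 26.5, 41.5 and 24.4 CPM in Tau-P301L libraries. Of the Tau-P301L libraries 3 lay below the wild-type range and the other 2 within it. The Gsdmd estimate was -0.28 (log2, SE 0.34, edgeR adjusted p = 0.905; interval 0.505-fold to 1.35-fold). It was -0.06 without wild-type library 4, -0.08 without Tau-P301L libraries 3 and 5, and -0.50 without Tau-P301L library 2. Adaptor, protease and pore thus had estimates of different sign, none of them past the threshold.

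Il1a was the most abundant cytokine transcript (chr2:129299610-129309972, minus strand). It had 125, 153, 89.5 and 171 CPM in wild-type and 160, 153, 241, 189 and 116 CPM in Tau-P301L libraries. Its 2 highest values were in males of the Tau-P301L group (libraries 3 and 4), the lowest was in wild-type library 3, and the middle of the ranges overlapped. This was a log2 fold change of 0.34 (SE 0.27, edgeR adjusted p = 0.835; interval 0.862-fold to 1.86-fold). It was 0.13 without wild-type library 3 and 0.51 without wild-type library 4. An antisense gene, Gm14023, covers 11.2% of the exonic bases of Il1a.

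Il1b, the cytokine that caspase-1 activates (chr2:129364570-129371139, minus strand), rested on 29, 51, 2 and 20 reads in wild-type and 21, 54, 13, 15 and 24 reads in Tau-P301L libraries. These were 8.89, 17.4, 0.765 and 5.54 CPM and 6.67, 19.3, 5.83, 6.41 and 16.8 CPM. Each group held libraries near 17 CPM and libraries under 7 CPM, and the spread within a group was larger than the difference between them. The estimate for Il1b was 0.76 log2 units (SE 0.64, edgeR adjusted p = 0.850; interval 0.671-fold to 4.28-fold). It was 0.29 without wild-type library 3 and its 2 reads, 0.34 without Tau-P301L libraries 3 and 5, and 1.16 without Tau-P301L library 1.

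Il18 encodes the other substrate cytokine of caspase-1 (chr9:50554827-50581840, plus strand). It had 28.8, 37.8, 27.2 and 52.9 CPM in wild-type and 47.6, 25.0, 34.1, 25.7 and 16.8 CPM in Tau-P301L libraries. Wild-type library 4 was highest and Tau-P301L library 5 lowest. The difference for Il18 was -0.30 log2 units (SE 0.36, edgeR adjusted p = 0.905; interval 0.485-fold to 1.37-fold). It was 0.03 without wild-type library 4 and -0.56 without Tau-P301L library 1.

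Il1rn, the receptor antagonist (chr2:24336853-24351494, plus strand), had the highest estimate and the least certain. Wild-type libraries held 0, 20, 2 and 0 reads and Tau-P301L libraries 6, 23, 7, 14 and 12 reads, or 0, 6.82, 0.765 and 0 CPM against 1.91, 8.21, 3.14, 5.99 and 8.38 CPM. All 5 Tau-P301L libraries lay above 3 of the 4 wild-type libraries, and wild-type library 2 lay among the Tau-P301L values. A count of 0 allows up to 0.919 CPM in wild-type library 1 and 0.831 CPM in wild-type library 4. Its estimate of 1.98 log2 units (SE 1.12, edgeR adjusted p = 0.789) had an interval of 0.780-fold to 20.0-fold. It was 4.43 without wild-type library 2 and 1.30 without wild-type library 4, and the unadjusted p was 0.0926 in edgeR, 0.0439 in DESeq2 and 0.0144 in limma-voom.

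Tnf (chr17:35199381-35202007, minus strand) had 11, 19, 4 and 13 reads in wild-type and 18, 3, 7, 26 and 18 reads in Tau-P301L libraries. These were 3.37, 6.48, 1.53 and 3.60 CPM and 5.72, 1.07, 3.14, 11.1 and 12.6 CPM. Tau-P301L libraries 4 and 5, both male, lay above all wild-type libraries, while Tau-P301L library 2 was the lowest of the 9. The estimate for Tnf was 0.68 log2 units (SE 0.79, edgeR adjusted p = 0.898; interval 0.513-fold to 5.03-fold). It was 0.20 without wild-type library 3 and 1.22 without Tau-P301L library 2.

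**Figure D3:**
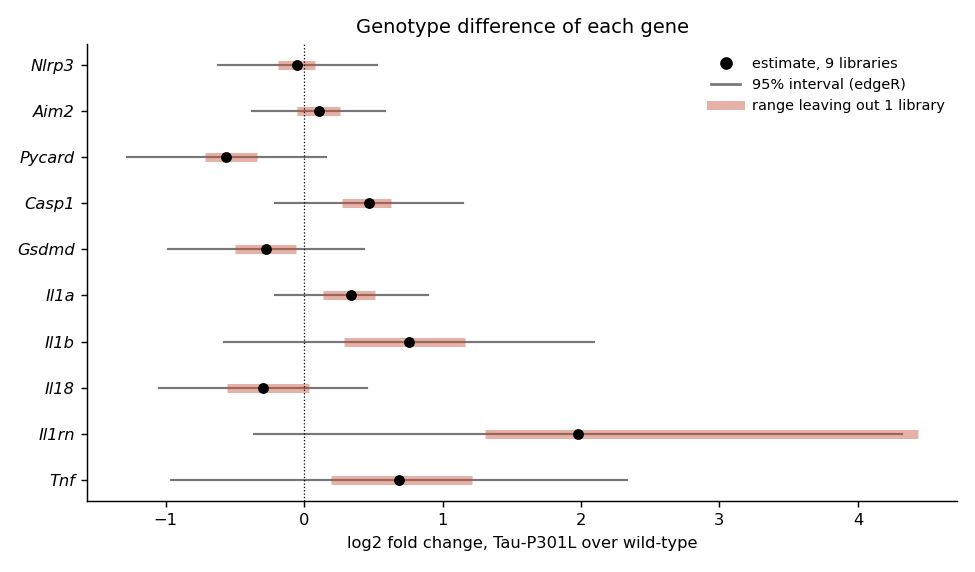
Log2 fold change of each gene, Tau-P301L over wild-type (horizontal axis), from edgeR over 9 libraries, with points for the estimate, grey lines for its 95% interval and red bands for the range when 1 library is left out. All 10 intervals include 0, and the interval is narrowest for Aim2 (-0.37 to 0.59) and widest for Il1rn (-0.36 to 4.32).

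The balance between the agonists and the antagonist can be read within a library, where scaling plays no part. Il1a took most of the reads of Il1a, Il1b and Il1rn together: 86.3 to 98.3% in wild-type and 82.2 to 96.4% in Tau-P301L libraries. Per length, Il1a exceeded Il1b in all 9 libraries. The ratio was 6.65, 4.16 and 14.6 in wild-type libraries 1, 2 and 4 and 3.27 to 19.5 in Tau-P301L libraries, and none is given for wild-type library 3, where Il1b had 2 reads. Il1b took 0.84 to 9.81% of the 3-gene reads in wild-type and 2.33 to 11.9% in Tau-P301L libraries.

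Il1rn took 1.17 ± 1.83% of these reads in wild-type (SD, n = 4) and 3.17 ± 2.09% in Tau-P301L libraries (SD, n = 5). Per library the wild-type shares were 0% of 437 reads, 3.85% of 520, 0.84% of 238 and 0% of 637, and a count of 0 allows up to 0.686% and 0.471%. In Tau-P301L libraries 1 to 5 the shares were 1.13, 4.55, 1.26, 2.97 and 5.94%. Library numbers do not pair the groups, so each wild-type interval was set against all Tau-P301L intervals. The Wilson 95% intervals of Tau-P301L libraries 1 to 5 were 0.518 to 2.44, 3.05 to 6.74, 0.61 to 2.57, 1.77 to 4.92 and 3.43 to 10.1%. That of wild-type library 1 (0 to 0.871%) overlapped those of Tau-P301L libraries 1 and 3. Wild-type library 2 (2.50 to 5.87%) overlapped Tau-P301L libraries 2, 3, 4 and 5. Wild-type library 3 (0.231 to 3.01%) overlapped Tau-P301L libraries 1, 3 and 4. Wild-type library 4, whose interval ended at 0.599%, overlapped only Tau-P301L library 1. These intervals cover counting error only.

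**Figure D4:**
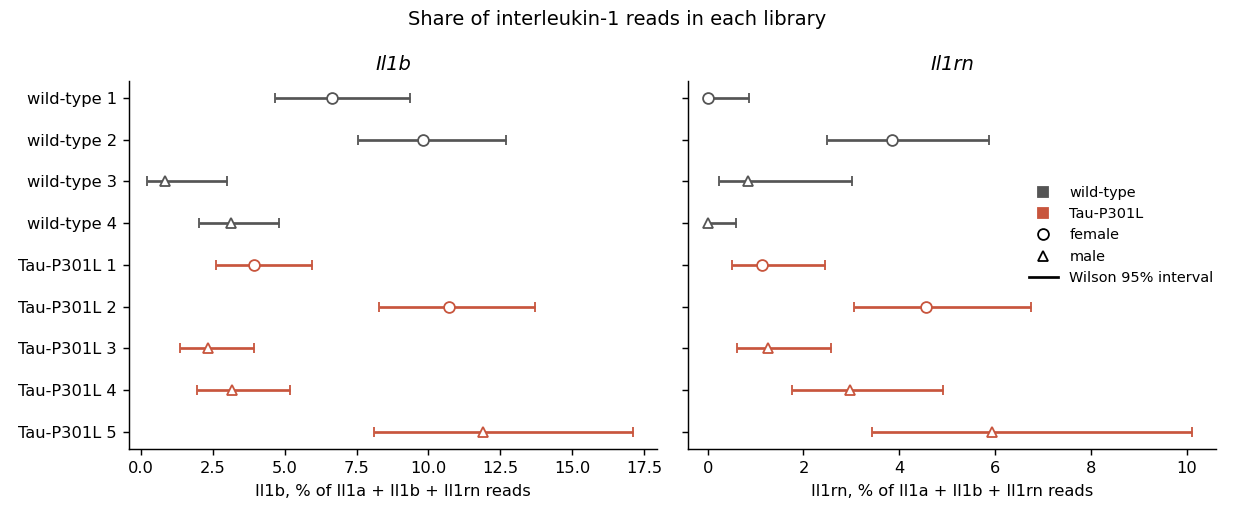
Reads of Il1b (left) and of Il1rn (right) as a percent of the reads of Il1a, Il1b and Il1rn in each library (horizontal axes), with Wilson 95% intervals, grey for wild-type, red for Tau-P301L, circles for females and triangles for males. Wild-type library 2 and Tau-P301L libraries 2 and 5 have the highest shares of both genes, 9.81 to 11.9% for Il1b and 3.85 to 5.94% for Il1rn.

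Il1b and Il1rn shared their 3 highest libraries, but not the order of the others. Wild-type library 1 had 8.89 CPM of Il1b and 0 reads of Il1rn, and Tau-P301L library 4 had 5.99 CPM of Il1rn and 6.41 CPM of Il1b. The 3 highest libraries for Il1b, which were wild-type library 2 and Tau-P301L libraries 2 and 5, were also the 3 highest for Il1rn. Of these 3, 2 were among the 3 highest for Tnf, 2 for Casp1, 2 for Pycard, 1 for Gsdmd, 1 for Il18 and none for Il1a, Nlrp3 or Aim2. They came from both genotypes and both sexes. Il1a, the neighbour of Il1b on the chromosome, had its 3 highest values in other libraries.

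Neutrophils also carry Il1b, Il1rn and Tnf, and their transcripts differed widely between libraries. In the list of 12 neutrophil genes Csf3r took most of the reads in every library (368 to 1080 CPM), and it was set aside after its values were seen. The other 11 genes, among them S100a8, S100a9 and Ngp, summed to 49, 1, 213 and 79 reads in wild-type and 4, 4, 11, 662 and 8 reads in Tau-P301L libraries. They were at or near 0 in the 3 libraries with the most Il1b and Il1rn (1, 4 and 8 reads). Csf3r stood at 1040, 790 and 535 CPM in these 3 libraries (wild-type library 2 and Tau-P301L libraries 2 and 5). The part of neutrophils in the Il1b and Il1rn values was not tested. Wild-type library 3, with 213 reads of the 11 genes, had the fewest Il1b reads of all. Tau-P301L library 4, with 283 CPM of them, was the second highest for Tnf, at 11.1 CPM, beside Tau-P301L library 5 at 12.6 CPM with 5.59 CPM of these genes. Their part in the Tnf value of library 4 was not tested, and without that library the log2 fold change of Tnf was 0.51. Among 15 immediate early and dissociation genes, 8 were tested, 2 had an unadjusted p under 0.05 and edgeR called none. Egr1, higher in all Tau-P301L than in all wild-type libraries, had a log2 fold change of 1.94 (SE 0.59, edgeR adjusted p = 0.593) and Egr2 of 1.95 (SE 0.64, edgeR adjusted p = 0.665), while Jun (-0.77), Junb (-0.80) and Jund (-0.71) had estimates of the other sign. All 15 summed to 102 to 185 CPM in wild-type and 86.4 to 226 CPM in Tau-P301L libraries. That sum was highest in Tau-P301L library 3 (226 CPM) and lowest in Tau-P301L library 2 (86.4 CPM), the library with the most Il1b, and the part of these genes in the cytokine values was not tested.

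By the mean absolute difference of gene-centred log2 CPM over the 9 libraries, the genes most like Il1b were Ifi213 (0.252), Flvcr2 (0.314), Arrdc4 (0.389) and 9430041J12Rik (0.413), where the median over 10156 genes was 0.943. Flvcr2 encodes a membrane transporter and Ifi213 a member of the gene family of Aim2. For Tnf they were Prorp (0.243), a gene number without a symbol (0.285), Cd300ld (0.309) and Fkbp14 (0.320), against a median of 0.893. Cd300ld encodes a receptor of myeloid cells.

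Sex was the other labelled factor. No member was called for sex in edgeR (0.049% of all genes were) and none had an unadjusted p under 0.05, against 2.43% of all genes. DESeq2 and limma-voom called no member for sex. The smallest unadjusted p was that of Il1b (0.0846), with a log2 difference of males from females of -1.15 (SE 0.63, edgeR adjusted p = 1). Wild-type females had 8.89 and 17.4 CPM of Il1b and wild-type males 0.765 and 5.54 CPM. In Tau-P301L the sexes overlapped, with 6.67 and 19.3 CPM in females and 5.83 to 16.8 CPM in males.

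The genotype difference was also compared between the sexes. For Il1rn the Tau-P301L males, at 3.14 to 8.38 CPM, lay above the wild-type males, at 0 and 0.765 CPM, and the females overlapped. For Tnf Tau-P301L males averaged 8.94 and wild-type males 2.57 CPM, against 3.39 and 4.92 CPM in females. Astrocyte markers also summed higher in the 3 Tau-P301L males (592, 521 and 660 CPM) than in every wild-type library (at most 375 CPM). So did the 10 monocyte genes, with 118, 111 and 125 CPM in these males and at most 96.1 CPM in wild-type libraries. The part of either set in the Il1rn and Tnf values of males was not tested. The interaction of genotype and sex was 3.33 log2 units for Il1rn (SE 2.08) and 2.27 for Tnf (SE 1.44), with an edgeR adjusted p of 0.999 each. No member was called for it by edgeR, DESeq2 or limma-voom, and none had an unadjusted p under 0.05 in edgeR, against 3.8% of all genes, of which edgeR called none.

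No gene of the surrounding pathway was called. Of 75 further genes of inflammasomes, cell death, interleukin-1, TNF and NF-kB, 61 could be tested, and edgeR, DESeq2 and limma-voom made no call among them. With each tool 2 had an unadjusted p under 0.05. Of all genes, 778 of 12250 had one that low in edgeR, 1115 of 24666 in DESeq2 and 732 of 12250 in limma-voom. In edgeR the 2 pathway genes were both higher, against 3.57% of all genes in that direction. Estimates were higher for 32 and lower for 29, with a median log2 fold change of 0.04, and the groups did not overlap for 1 gene in each direction (1.31% and 1.18% of all genes). Zbp1, 1 of the 2 genes of low p and the gene without overlap upward, passed the low-count filter on Tau-P301L libraries only.

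Among the other sensors and regulators, 16 of 22 genes were tested, with a median of 0.10, and none was called. Zbp1, whose product senses Z-form DNA and RNA and can activate NLRP3, stood at 3.68, 2.05, 1.15 and 1.38 CPM in wild-type and 4.45, 9.28, 17.5, 11.5 and 4.19 CPM in Tau-P301L libraries. These were 12, 6, 3 and 5 reads and 14, 26, 39, 27 and 6 reads. The groups did not overlap, and Tau-P301L libraries 1 and 5 lay closest to the wild-type range (log2 fold change 2.17, SE 0.71, edgeR adjusted p = 0.658). Zbp1 passed the low-count filter on its Tau-P301L libraries only. That favours a higher estimate, so the missing overlap is a description and carries no weight. Ifi204, a DNA-sensing relative of Aim2, had a value of 1.12 (SE 0.45, edgeR adjusted p = 0.748), with overlap of the groups and with close copies in the genome. Txnip, which binds NLRP3 under oxidative stress, was at 88.9 to 123 CPM in wild-type and 49.6 to 87.7 CPM in Tau-P301L libraries, without overlap after TMM (-0.49, SE 0.26, edgeR adjusted p = 0.789). By total reads the groups overlapped, with 311 of 3.79 M in wild-type library 1 and 259 of 2.88 M in Tau-P301L library 1.

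Per length, the sensors spanned a wide range of levels in wild-type libraries. Nlrp1b at 12.0 ± 0.830 RPKM (SD, n = 4) stood level with Aim2, and the NAIP receptors of bacterial proteins followed with Naip6 at 9.37 ± 1.43, Naip2 at 6.17 ± 0.692 and Naip5 at 5.25 ± 0.746 RPKM. Nlrc4, the partner that NAIP proteins need to form an inflammasome, stood at 0.199 ± 0.213 RPKM, and its 68 reads in all libraries were too few to test. Mefv, which encodes pyrin, had 30 reads and Nlrp12 1 read in all libraries, and Nlrp6 and Nlrp10 had none. P2rx7, the ATP-gated channel that triggers NLRP3, stood at 9.28 ± 0.950 and Nek7, the kinase that NLRP3 needs, at 6.37 ± 1.13 RPKM.

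Of 10 caspases and cell death effectors 7 were tested, with a median of 0.27, and none was called. Casp8, a caspase of the death receptors, stood at 296 to 362 CPM in wild-type and 270 to 430 CPM in Tau-P301L libraries. Gsdme, another gasdermin, had a log2 fold change of 0.82 (SE 0.52, edgeR adjusted p = 0.803), Casp4, the mouse caspase-11 gene, 0.34 (SE 0.38, edgeR adjusted p = 0.894) and Ripk1 0.28 (SE 0.28, edgeR adjusted p = 0.869). Casp4 stood at 53.8 CPM in Tau-P301L library 3 and at 16.8 to 28.2 CPM in all others, and without that library its value was 0.029. Gsdme was 0.457 without wild-type library 1 and Ripk1 0.155 without Tau-P301L library 1. The necroptosis genes Ripk3 and Mlkl, with 29 and 24 reads in all, were too low to test.

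Of 20 genes of IL-1 and IL-18 reception and signalling 17 were tested, with a median of -0.03, and none was called. Estimates were lower for 10 and higher for 7, among them the 3 of smallest p. The receptor of IL-1, Il1r1, was rare, averaging 3.37 ± 1.76 CPM over 4 wild-type and 6.84 ± 2.81 CPM over 5 Tau-P301L libraries (SD; log2 fold change 1.17, SE 0.62, edgeR adjusted p = 0.789). Il18rap, a chain of the IL-18 receptor, had a value of 1.76 (SE 0.97) and the alarmin Il33 of 2.03 (SE 1.16), both with an edgeR adjusted p of 0.789. Il18rap rested on 2, 0, 2 and 14 reads in wild-type and 14, 16, 5, 16 and 2 reads in Tau-P301L libraries. Its value was 1.26 without wild-type library 2, 3.07 without wild-type library 4 and 0.59 in males alone. On leaving out each library Il33 ranged from 1.35 (without wild-type library 3) to 3.62 (without wild-type library 2). Il33 passed the low-count filter on Tau-P301L libraries only, with 0, 9, 0 and 6 reads in wild-type libraries. Its level was 21.6 CPM in Tau-P301L library 5 and at most 4.93 CPM in all others. In that library oligodendrocyte markers summed to 1440 CPM, against 327 to 700 CPM in the other libraries, and astrocyte markers to 660 CPM, against 302 to 592 CPM, and their part in the Il33 value was not tested. The decoy receptor Il1r2 had 4 reads in all libraries.

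Of 11 genes of TNF processing and signalling 9 were tested, with a median of -0.16, and none was called. Birc2, an inhibitor of cell death at the TNF receptor, had a log2 fold change of 0.52 (SE 0.30, edgeR adjusted p = 0.789), the adaptor Traf2 -0.53 (SE 0.48, edgeR adjusted p = 0.862) and Zfp36, which destabilises Tnf mRNA, -0.25 (SE 0.27, edgeR adjusted p = 0.886). Without wild-type library 4 Traf2 was -0.228, without Tau-P301L library 4 Zfp36 was -0.438 and without wild-type library 3 it was -0.138, and without Tau-P301L library 1 Birc2 was 0.339. All 12 NF-kB genes were tested, with a median of -0.03, and none was called. Estimates were lower for 7 and higher for 5, among them the 3 of smallest p. Nfkbiz, an inducible nuclear cofactor, had a value of 0.66 (SE 0.34, edgeR adjusted p = 0.789), Relb 1.2 (SE 0.82, edgeR adjusted p = 0.812) and the kinase subunit Chuk 0.40 (SE 0.29, edgeR adjusted p = 0.822). Relb was 0.786 without wild-type library 2 and Chuk 0.233 without wild-type library 1.

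**Figure D5:**
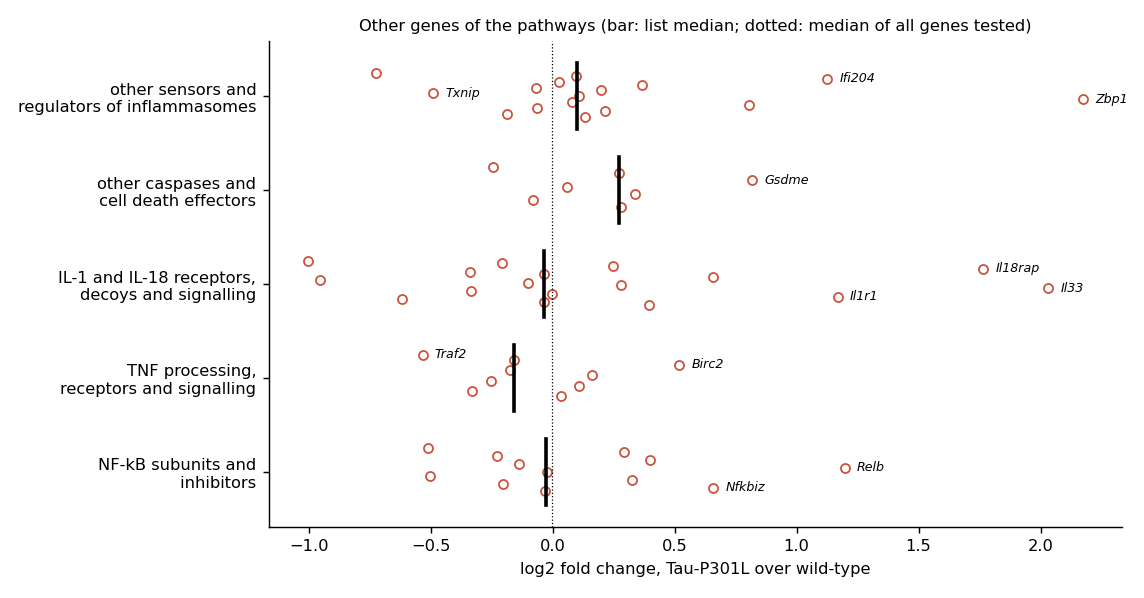
Log2 fold change, Tau-P301L over wild-type (horizontal axis), of the 61 tested pathway genes in 5 lists, with a circle for each gene, a black bar for the list median and a dotted line at the median of all tested genes, and with names beside those farthest out among the genes named in the text. The medians lie between -0.16 and 0.27, and Zbp1 (2.17) and Il33 (2.03) lie farthest to the right. Zbp1 and Il33 passed the low-count filter on Tau-P301L libraries only.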

How the data were processed

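Each of 9 files covered 1 library. Per the file headers, the deposited counts give reads aligned uniquely to each gene model. Beside them, per the file headers, stand RPKM that the authors adjusted with size factors. Reads were aligned with GSNAP to GRCm38, per the submitters' processing notes; the sources used here do not give versions, annotation, strand or filters. Symbols came from RefSeq (31049 of 36528 gene numbers; 96.93 to 97.98% of reads).

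Tests used edgeR 4.0.16 (R 4.3.3) quasi-likelihood F tests on the counts, with TMM scaling, the default low-count filter, genotype and sex in 1 fit with 6 residual degrees of freedom, and Benjamini-Hochberg adjustment at 0.05 over all 12250 tested genes. The interaction came from a fit that added the product. CPM are after TMM, and levels between genes use the deposited RPKM. Intervals are 95%. Alternatives were DESeq2 1.42.0, limma-voom (limma 3.58.1) with sample weights, other scalings and filters, 1 sex at a time and leaving out libraries. Steps were tested on simulated data. Every pair of libraries differed beyond sampling noise (lowest chi-square over its degrees of freedom 11.33).

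The members and lists were chosen with earlier results of these data known. Named are all members, the 3 pathway genes of smallest p per list (none passed the threshold), and the 4 genes most like Il1b and Tnf with a mean of at least 5 CPM (prior count 2). Others (Nlrp1b, Naip6, Naip2, Naip5, Nlrc4, Mefv, Nlrp6, Nlrp10, Nlrp12, P2rx7, Nek7, Casp8, Ripk3, Mlkl, Il1r2) and TATAAA were named after their values were seen.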

Additional observations from a re-analysis of the deposited data

Results flagged for a closer look

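Among the 20 combinations of gene and group, 2 had a library far from the others by Dixon's ratio of gap to range, where chance flags about 1 in 20. Both were wild-type library 2, a female. Pycard stood at 54.2 CPM there, with a ratio of 0.901 above the 95% critical value for 4 samples, and its log2 fold change was -0.34 without that library. Il1rn stood at 6.82 CPM there, with a ratio of 0.888, and its log2 fold change was 4.43 without that library.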

How the results depend on the processing

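The counts of 0 called members (genotype, sex and interaction) and of 0 called pathway genes were 0 under every alternative run. The count over all genes, 1 in the main analysis, was 19 with DESeq2, 26 without a low-count filter, 0 in females alone, 0 in males alone, 0 without both Tau-P301L libraries 3 and 5, and 0 to 1 on leaving out each library (0 without any of wild-type libraries 1 to 4 or Tau-P301L libraries 1, 3 or 5). Of the members, Pycard, Casp1, Gsdmd, Il1a and Il1rn kept the sign of their log2 fold change under every alternative that gave a value. Nlrp3 changed sign in males alone (0.11), without Tau-P301L libraries 3 and 5 (0.07) and on leaving out 1 library (range -0.185 to 0.078), and Aim2 in males alone (-0.14) and on leaving out 1 library (-0.053 to 0.258). In females alone the values were -0.026 for Il1b, 0.13 for Il18, -0.51 for Tnf and 0.57 for Il1rn. In males alone they were 1.56 for Il1b, -0.64 for Il18, 1.76 for Tnf and 3.87 for Il1rn. On leaving out 1 library Il18 ranged from -0.557 to 0.034. The cause was not tested. The 15 pathway genes of smallest p (3 per list) changed sign under none of the alternatives that gave them a value, and for the other pathway genes no value under the alternatives is given. Il1rn was not tested with at least 10 reads in 6 libraries, and of the 15 pathway genes neither were Zbp1, Il1r1, Il18rap, Il33 and Relb. Fits of 1 sex rest on 2 against 2 or 2 against 3 libraries. No paired analysis was possible because the labels give no replicate numbers. Depth limits Il1b, Il1rn and Tnf most, with at most 54, 23 and 26 reads in a library.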
